A study of Drosophila melanogaster with 5 samples.

Results

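Sr-CII (CG8856) encodes a class C scavenger receptor of Drosophila melanogaster, a transmembrane protein with an extracellular part built of Sushi, MAM and Somatomedin B domains. Its members in the data were the library spots printed under the name Sr-CII, which are 2 duplicate spots of 1 cDNA clone (25_F06) on each of 20 nylon membranes, 40 of 14640 library spots and 1 of 259 genes printed. The embryos were Canton S wild type, about 100 for each RNA sample, and were hand-selected by morphology at 5 developmental intervals, namely the syncytial blastoderm (S2-3), the cellular blastoderm (S5), the gastrula (S6-7) and, after gastrulation, S8-9 and S10-12. Each interval has 1 deposited sample, hybridized as 32P-labeled SMART-cDNA to 4 membranes, A to D. No treatment or transgene was involved, and the study asked which transcripts change as the embryo leaves the syncytial stage.

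Scavenger receptors are surface proteins that bind polyanionic ligands, and the class C receptor Sr-CI is known in flies as a receptor through which the macrophage-like hemocytes take up bacteria. Embryonic hemocytes arise from the head mesoderm and spread through the embryo during germ band stages, where they engulf dying cells. Of the 4 class C genes in the RefSeq annotation, Sr-CI, Sr-CII, Sr-CIII and Sr-CIV, only Sr-CII was among the spots analysed here. The spotted double-stranded cDNA does not tell strands apart, and cross-hybridization of transcripts of the other class C genes was not tested.

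The clone came from a library subtracted to enrich for gastrula cDNA over syncytial blastoderm cDNA, so a signal higher after S2-3 was selected for when the library was made. The values are net signals, that is, spot intensities on an arbitrary scale with the local background subtracted. A spot passed the signal rule when its net signal was positive and its mean signal stood at least 1 background SD above the mean of its local background. Levels below are net signals of the membrane divided by the median net signal there of RP49, a ribosomal protein gene printed as a housekeeping control. The RP49 spots of a membrane scattered unevenly. Their coefficients of variation were 96.4 to 125% on A to C of S5 and 52.1 to 78.9% at S10-12, against 21.3 to 41.4% at S2-3. Whole embryos were used, so fewer cells that express the gene and less RNA per cell cannot be told apart. The sources do not say whether separate embryos were used for the 4 membranes within an interval, so the SDs and p-values measure only the spread between membranes.

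Sr-CII was near background in S2-3 embryos and clearly above it in every later interval. At S2-3 only 1 of the 8 spots passed the signal rule, whereas all 8 passed in each of the 4 later intervals. Of all library spots, 64.9, 44.4, 22.7 and 40.8% passed on membranes A to D of S2-3. On the later membranes it was between 42.7 and 94.4%. Spots of solvent alone passed most often on membrane A of S6-7, at 34.7%, and on A of S5, at 29.9%. The S2-3 spots lay between 0.0697 and 1.33 background SDs above their local background, and the dimmest later spot, on a membrane of S10-12, lay 4.14 background SDs above it.

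At S2-3 the net signals of the duplicate spots were 0.00828 and 0.00609 on membrane A, 0.00205 and 0.00317 on B, 0.00187 and 0.00934 on C, and on membrane D they were 0.00590 and 0.00241. The first spot of membrane A was the one that passed. Of 560 spots of solvent alone on these 4 membranes, 28 were as bright as the mean of the Sr-CII pair on the same membrane or brighter. The duplicates also scattered most here, with coefficients of variation of 21.6 to 94.3%, so the S2-3 level is a value near the detection limit and not a measured low level.

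At S5 the net signals were 0.184 and 0.195 on membrane A, 0.0992 and 0.0666 on B, 0.102 and 0.119 on C and 0.232 and 0.325 on D. At S6-7 they were 0.227 and 0.151 on A, 0.0807 and 0.106 on B, 0.313 and 0.226 on C and 0.340 and 0.391 on D. Every one of these 16 spots was brighter than the brightest S2-3 spot, and the signals of S5 and S6-7 overlapped each other.

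At S8-9 the net signals were 0.170 and 0.164 on membrane A, 0.179 and 0.104 on B, 0.156 and 0.155 on C and 0.632 and 0.599 on D. At S10-12 they were 0.167 and 0.119 on A, 0.0484 and 0.0264 on B, 0.192 and 0.0987 on C and 0.0530 and 0.0642 on D. Membrane D was the brightest of the 4 at S8-9 and the dimmest but one at S10-12. The duplicate spots on B and C of S10-12 differed by coefficients of variation of 41.5 and 45.5%, just inside the limit of 0.5 beyond which a clone was left out. At S5 and at S6-7 only 3 of 560 solvent spots were as bright as the Sr-CII pair or brighter, and at S8-9 and S10-12 it was 0 of 560.

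**Figure D1:**
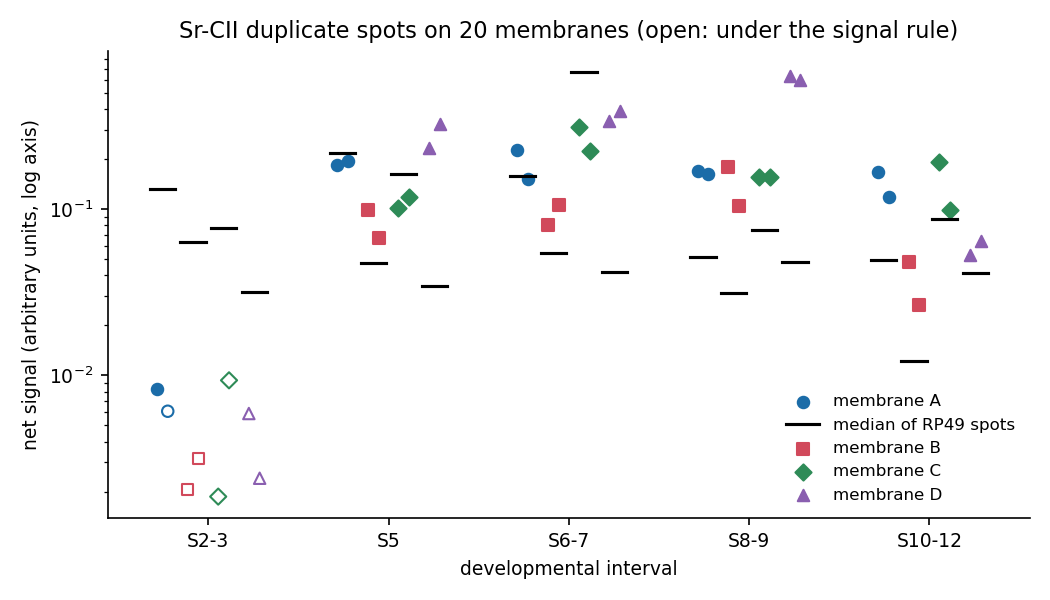
Net signal of each Sr-CII spot (arbitrary units, log axis) by developmental interval, with the 4 membranes side by side, filled symbols for spots that passed the signal rule and open symbols for those that did not, and a black bar at the median RP49 net signal of the membrane. The 8 S2-3 spots lie between 0.00187 and 0.00934, and the 32 later spots between 0.0264 and 0.632.

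Relative to RP49, the log2 level of Sr-CII at S2-3 was -4.00 on membrane A, from its 1 passing spot, and no other membrane of S2-3 gave a value under the signal rule. At S5 the log2 levels on A, B, C and D were -0.21, 0.81, -0.55 and 3.02, and at S6-7 they were 0.26, 0.77, -1.31 and 3.13. At S8-9 they were 1.69, 2.17, 1.04 and 3.68, and at S10-12 they were 1.53, 1.62, 0.74 and 0.50. S8-9 was the highest interval on each of the 4 membrane letters. With every spot used, those under the signal rule included, S2-3 was the lowest on each of the 4.

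On the log2 scale over RP49, S5 averaged 0.77 ± 1.61, S6-7 averaged 0.71 ± 1.84, S8-9 averaged 2.15 ± 1.12 and S10-12 averaged 1.10 ± 0.56 (SD, n = 4 membranes each). As ratios to RP49 these geometric means were 1.70, 1.64, 4.43 and 2.14. With the mean of the RP49 spots as divisor in place of their median, the log2 averages were 0.16, 0.73, 2.08 and 0.83 in stage order. From lowest to highest, the order of the means with the median was S2-3, S6-7, S5, S10-12 and S8-9. S5 exceeded S6-7 by 0.06 and S10-12 exceeded S5 by 0.33 on the log2 scale, both less than the SD of either interval. S8-9 exceeded S10-12 by 1.05, which is less than the SD at S8-9. Only the step up to these intervals from S2-3, 4.71 or more on the log2 scale from its 1 measured membrane, was larger than the SD between membranes in each of these intervals.

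**Figure D2:**
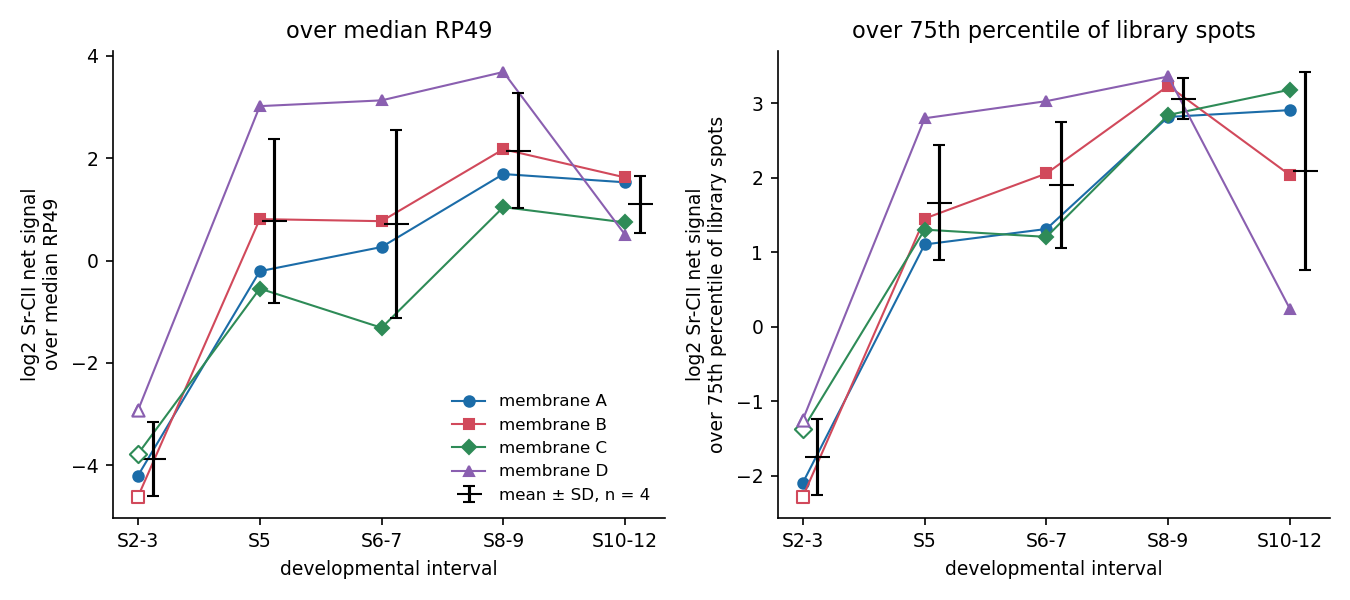
Log2 Sr-CII net signal over the median RP49 net signal (left) and over the 75th percentile of the library spots (right) of the same membrane, by developmental interval, with 1 line per membrane letter, open symbols where neither spot passed the signal rule and bars for mean ± SD over all 4 membranes, drawn from the mean of both spots. With RP49 the line of membrane D runs above the others at S5, S6-7 and S8-9 and ends lowest, at 0.50, at S10-12.

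The comparisons with S2-3 asked when the transcript appears. With the signal rule in force, S2-3 had 1 measured membrane, and there from 1 spot just over the rule, so the differences have no test and no firm size. They were 4.76 for S5, 4.71 for S6-7, 6.14 for S8-9 and 5.10 for S10-12, each minus S2-3 on the log2 scale. With every spot used, the level over RP49 was higher than at S2-3 on each of the 4 letters in each of the 4 later intervals. The letter with the smallest such gap was C at S6-7, where RP49 was 8.71 times as bright as on membrane C of S2-3.

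A test of these differences needed the dim S2-3 spots, and it was therefore run with neither the signal rule nor the limit on duplicates, a setting chosen after the data were seen. Spots without a positive net signal were still left out, which removed no Sr-CII spot but did apply to other features. Because the S2-3 spots were not above background, the test is read for its direction only and gives no size. In that limma fit Sr-CII was higher at S5 than at S2-3 with an adjusted p of 0.000502 over 266 features, of which 15.8% passed in the same direction. It was higher at S6-7 than at S2-3 with an adjusted p of 0.000543, where 8.65% of features passed upward. It was higher at S8-9 than at S2-3 with an adjusted p of 1.62e-05, where 13.2% of features passed upward. It was higher at S10-12 than at S2-3 with an adjusted p of 0.000394, where 13.5% of features passed upward. With the membrane letter as a block the features that passed upward were 85 at S6-7 and 119 at S10-12, against 23 and 36 without it, and Sr-CII passed both ways. The 4 comparisons share the S2-3 membranes. The median feature was also higher than at S2-3, by 0.97, 0.79, 0.95 and 1.05 on the log2 scale in stage order.

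Scaled instead to the 75th percentile of the library spots of each membrane, the median feature was lower than at S2-3 in all 4 intervals, with differences of -0.26, -0.15, -0.27 and -0.10 on the log2 scale. The calls split there into 24 higher and 42 lower features at S5, against 42 higher and 0 lower with RP49. Sr-CII itself remained higher than at S2-3 under this scaling, with adjusted p-values in limma of 0.000378, 0.000271, 6.62e-06 and 0.000126 in stage order.

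In an exact permutation test of Sr-CII alone with every spot used, the 4 membranes of each later interval lay above the 4 of S2-3, and the two-sided p was 0.0286 in each of the 4 comparisons, the smallest that 4 against 4 membranes can give. The size of the step has only a bound, computed under a stricter signal rule of 2 background SDs, which no S2-3 spot passed. On each S2-3 membrane the floor was the highest of 3 values, the dimmest library spot that passed, the net signal of Sr-CII itself and 2 background SDs at its own spots, and it lay between 0.0165 and 0.0355 in net signal. The bounds compare means of log2 levels over the 4 membranes and leave out the spread between them. In these means over RP49, Sr-CII was at least 5.36-fold higher at S5 and at least 5.16-fold higher at S6-7 than at S2-3. It was at least 14.0-fold higher at S8-9 and at least 6.75-fold higher at S10-12. Over the 75th percentile the same floor gave at least 2.28-fold, 2.69-fold, 6.02-fold and 3.07-fold in stage order. These folds hold for the means only and were not reached on every letter. Against the S2-3 floor of the same letter, membrane C of S6-7 lay under the floor itself with both scalings. Membrane D of S10-12 lay under its floor with the 75th percentile. Over RP49, C at S5, S8-9 and S10-12 and D at S10-12 stood above their floors by less than the stated folds. With the 75th percentile some membranes, C of S5 among them, also fell short of them. This floor was chosen after the data were seen.

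Of 258 genes with a value on some membrane, 19 were measured on all 4 membranes in each of the 4 later intervals. Only 4 of these 19 were measured on at most 1 membrane at S2-3, and they were Sr-CII, dpr19, pan and tup, while 6 of the 19 were measured on all 4. dpr19 encodes an immunoglobulin-domain surface protein, pan the TCF transcription factor of the Wnt pathway and tup a LIM-homeodomain transcription factor. These counts follow from the same signal rule and are given as a description.

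Among the later intervals no difference of Sr-CII passed the test. S6-7 minus S5 was -0.06 ± 0.87 on the log2 scale (SE, 95% interval -1.82 to 1.70), with an adjusted p of 0.986 in limma over 222 features, of which 1.35% passed. The sign of this difference was not the same on the 4 letters, with 0.47 on A, -0.04 on B, -0.77 on C and 0.11 on D, and it turned positive with the 75th percentile, at 0.24. The interval allows more than a 3-fold change either way, so S5 and S6-7 were not shown to be alike.

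S8-9 minus S6-7 was 1.44 ± 0.87 (SE, 95% interval -0.32 to 3.20), with an unadjusted p of 0.106 and an adjusted p of 0.998 in limma over 212 features, of which 0.0% passed and 2 had an unadjusted p under 0.05. The difference was positive on each letter, with 1.43 on A, 1.41 on B, 2.36 on C and 0.55 on D, and Sr-CII ranked number 7 from the top among those features, whose median was 0.36. The two-sided p of the exact permutation test was 0.257 (n = 4 membranes each). Deviations of same-letter membranes went together in these intervals, and with the letter as a block the difference was 1.44 ± 0.55 (SE, 95% interval 0.29 to 2.59), with an unadjusted p of 0.0171 and an adjusted p of 0.385 in limma. The exact permutation test within letters gave 0.125, the smallest two-sided p that 4 pairs allow. The net signal of Sr-CII itself at S8-9 was 0.884, 1.52, 0.578 and 1.69 times that at S6-7 on A to D, while the RP49 median was 0.329, 0.573, 0.113 and 1.15 times that at S6-7. The higher ratio to RP49 on A and C thus went with a dimmer Sr-CII spot and a still dimmer RP49, and the part of RP49 in it was not tested. With the 75th percentile the difference was 1.16 (95% interval -0.05 to 2.38), again positive on each letter.

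S10-12 minus S8-9 was -1.05 ± 0.87 (SE, 95% interval -2.81 to 0.71), with an adjusted p of 0.997 in limma over 201 features, of which 0.0% passed and 4 had an unadjusted p under 0.05. The differences by letter were -0.16 on A, -0.55 on B, -0.30 on C and -3.18 on D, so that membrane D carried most of the mean. Without D in any interval the difference was -0.34. The exact permutation test gave a two-sided p of 0.114 (n = 4 membranes each). With the letter as a block the 95% interval was -2.20 to 0.10 and the adjusted p in limma 0.575, and the exact permutation test within letters gave 0.125. With the 75th percentile the sign differed by letter, with 0.09 on A, -1.20 on B, 0.34 on C and -3.12 on D, and with that scaling S10-12 and not S8-9 was the highest interval on 2 of the 4 letters.

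**Figure D3:**
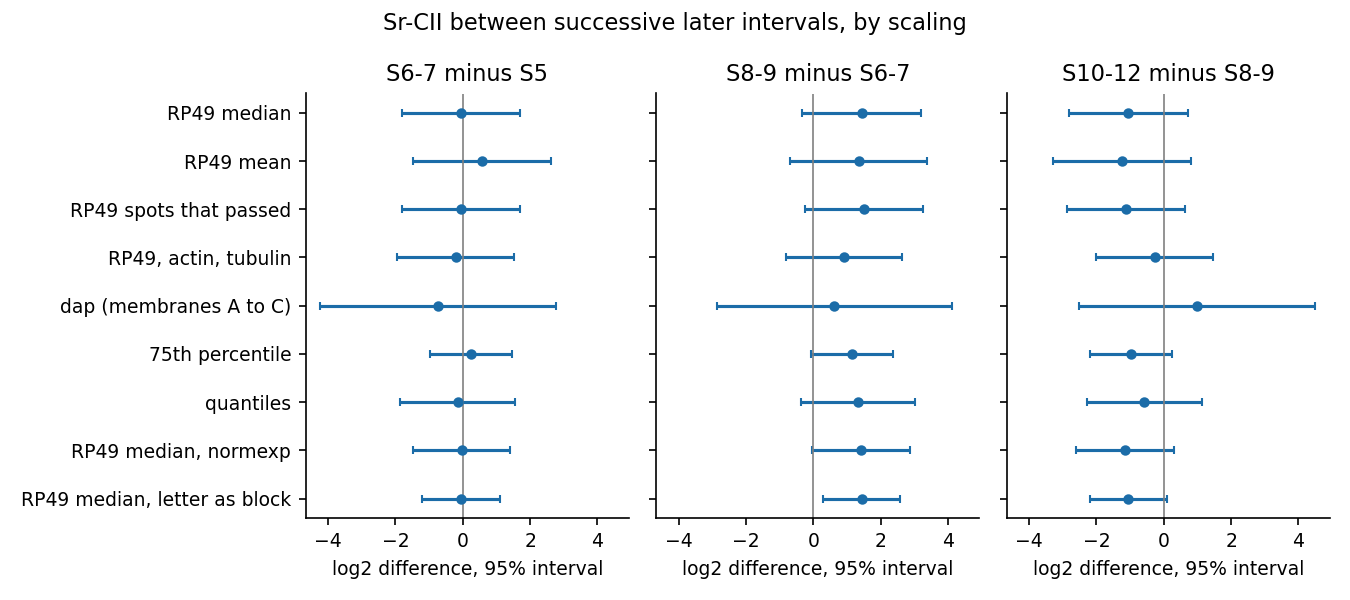
Log2 difference of Sr-CII between successive later intervals (points) with the 95% interval of the limma fit (bars), for 9 settings of scaling, background and block, 1 panel per comparison. For S8-9 minus S6-7 all 9 points lie above 0, between 0.63 and 1.50, and only the interval with the membrane letter as a block leaves 0 outside.

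Membrane D stood apart from A to C. Its layout is another one, with 579 library clones where the others carry 295, and it holds no spots of the dap spike. Over RP49, Sr-CII on D was 8.09 at S5, 8.75 at S6-7 and 12.8 at S8-9, against at most 1.75, 1.70 and 4.51 on A to C in the same intervals. At S10-12 the ratio on D was 1.42, below the 1.67 to 3.08 on A to C. RP49 on D stayed between 0.0315 and 0.0479 through all 5 intervals, whereas on C it ranged between 0.0755 and 0.669. The cause of the higher ratio on D was not tested. On A, B and C, as on D, the Sr-CII pair of every later interval was brighter than that of S2-3.

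The label of Sr-CII as a hemocyte gene could not be checked against other markers of these cells. The study also stained embryos for this gene by in situ hybridization. It described the transcript as restricted in place after the cellular blastoderm, and those images were not analysed here. Of 47 gene names in a list of hemocyte and plasmatocyte markers, Sr-CII was the 1 printed, and srp, gcm, crq, Hml and Pxn were not analysed here. Of 24 names in a list of innate immunity and phagocytosis genes, 1 was printed as a library clone, egr, which encodes the TNF ligand Eiger. Its log2 signal over RP49 was -2.58 ± 1.41 at S5, -1.88 ± 0.95 at S6-7 (SD, n = 4), -1.89 ± 0.82 at S8-9 and -1.98 ± 1.12 at S10-12 (SD, n = 3), against -3.12 ± 0.23 at S2-3 (SD, n = 3). No difference of egr passed the test, and the highest minus S2-3 was 1.24 at S6-7, with an adjusted p of 0.892 in limma. pall, an F-box gene required for phagocytosis in fly cells, was printed too, outside the lists and picked by its name. It was at -0.35 ± 0.08 at S5 (SD, n = 2), -1.41 ± 1.04 at S6-7 (SD, n = 3), -1.28 ± 0.72 at S8-9 and -1.35 ± 1.08 at S10-12 (SD, n = 4), against -2.08 ± 0.69 at S2-3 (SD, n = 3). A further gene looked at outside the lists, kuz, had no value at S2-3. It was at -2.06 ± 1.43 at S5 and -2.10 ± 0.94 at S8-9 (SD, n = 3). On 1 membrane each, kuz was at -1.43 at S6-7 and -1.23 at S10-12.

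Lists of neighbouring tissues gave little to set beside it. Of 9 mesoderm names, 1 was printed as a library clone, stumps, which encodes an adaptor of the fly FGF receptors. It differed from S2-3 by 2.29 at S5, with an adjusted p of 0.210 in limma, and passed in none of the 7 comparisons. The mesoderm genes twi, sna and tin were printed as control spots, which were not counted in the lists and not analysed here. Of 12 amnioserosa and dorsal ectoderm names 5 were printed, tup, Kr, Ance, CG6234 and CR32477, and none passed in a comparison where it was tested. Against S2-3 only 2 of them, Kr and CR32477, could be tested, and there 3.23 to 5.03% of all features tested rose. Of 5 cellularization names 2 were printed, and of these Sry-alpha, needed to form the blastoderm cells, fell by 3.72 on the log2 scale at S6-7 relative to S5, with an adjusted p of 0.00375 in limma, while SNCF was at -1.33.

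The study placed Sr-CII in its cluster 3 of genes up-regulated during development, 45 genes that were chosen and clustered on these same membranes, so that the cluster is not independent evidence of its direction. With the signal rule in force, 24 of the 45 could be tested at S5 against S2-3 and 4 rose, where 5.03% of all features tested rose, with a median difference of 1.38 against 0.85 over all features. At S6-7 against S2-3 1 of 27 rose, where 4.14% of all features rose, with a median of 1.03 against 0.54. At S8-9 2 of 25 rose, where 3.23% of all features rose, with 1.41 against 0.88, and at S10-12 3 of 26 rose, where 3.25% of all features rose, with 1.58 against 1.11. Sr-CII was not among the tested members, because S2-3 had 1 measured membrane for it. Between successive later intervals 1 of 37 members fell at S6-7 relative to S5, where 1.35% of all features passed. None changed at S8-9 (34 tested) or at S10-12 (35 tested), where 0.0% of all features passed.

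The genes whose pattern was most like that of Sr-CII were found by the correlation of log2 signal over RP49 across membranes where both were measured, for 199 genes that shared at least 10 membranes with it. The 5 highest were SP1029 with a Pearson r of 0.91 over 14 membranes, Src42A with 0.91 over 10, Thor with 0.90 over 16, CG12420 with 0.88 over 16 and Egfr with 0.87 over 13. SP1029 encodes a membrane aminopeptidase, Src42A a Src-family tyrosine kinase, Thor the 4E-BP inhibitor of translation and Egfr the epidermal growth factor receptor. The points share the RP49 divisor and the membrane letter, and the median r over all 199 genes was 0.63. At most 1 point of each r came from S2-3, where Sr-CII had 1 measured membrane and Egfr 0. The r therefore mainly describe the later membranes and not the step from S2-3. Scaled to the 75th percentile, where that median was 0.10, the values were 0.79 for SP1029, 0.75 for Src42A, 0.71 for Thor, 0.55 for CG12420 and 0.75 for Egfr.

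**Figure D4:**
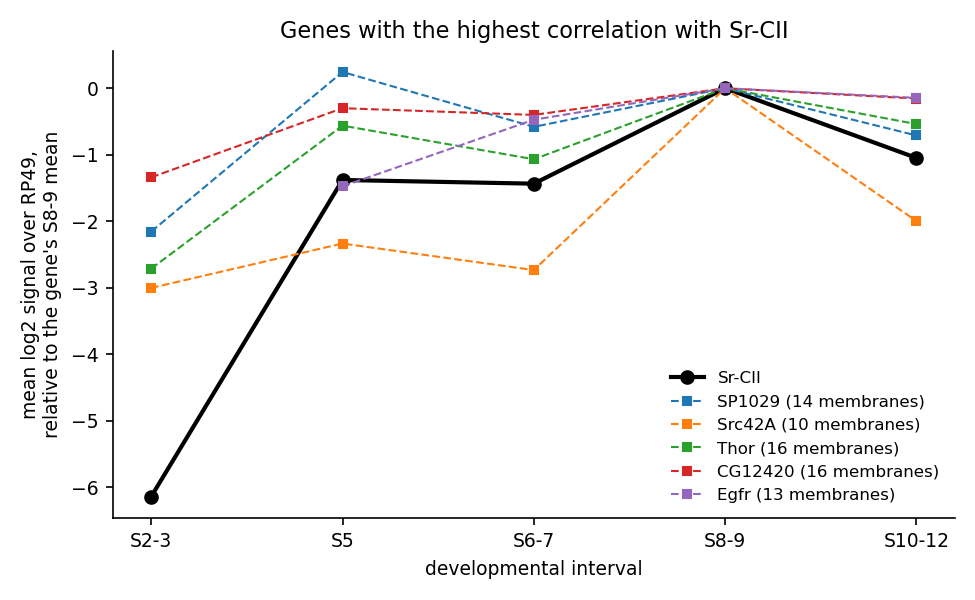
Mean log2 signal over RP49 by developmental interval for Sr-CII and for the 5 genes with the highest correlation with it, each drawn relative to its own S8-9 mean, with missing points where no membrane measured the gene. The S2-3 mean of Sr-CII, from 1 membrane, lies 6.14 below its S8-9 mean, while Thor was at -0.56 at S8-9, against -3.28 at S2-3, each from 3 membranes. The line of Src42A is set to an S8-9 value from 1 membrane, and its S2-3 value is also from 1.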

How the data were processed

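Staged embryos of 5 intervals were hybridized to 20 membranes. The authors amplified SMART-cDNA, labeled it with 32P in 2 labeling events, scanned the screens and measured spots in VersArray Analyzer, and the deposited intensity values are the mean signal, the local background with its SD and the net signal, with no normalization. Which membrane belongs to which event was not given in the sources used here. No genome build enters the values. The number of membranes limits the precision.

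Clones whose duplicate spots had a coefficient of variation over 0.5 were left out, as were spots under the signal rule. The qcom filter and the SAM test of the Methods were not used, and dap served only as an alternative, since membrane D has none. Net signals over the median of all RP49 spots were taken to log2 and fitted in limma 3.58.1 (R 4.3.3, lmFit and eBayes) with all 20 membranes and 1 mean per interval. Genes, introns and intergenic regions measured on at least 2 membranes in both intervals were tested, with Benjamini-Hochberg adjustment over all of them and a threshold of 0.05. The fit was tested on simulated data. Deviations of same-letter membranes from their interval means correlated at over 0.1 in 23 of 28 pairs (-0.06 to 0.80), and in every pair for S8-9 with S6-7, S10-12 with S8-9, and S6-7 and S10-12 with S2-3. The sources give the letter no meaning, so the pairing rests on these correlations, and the fit with the letter as a block is given beside the main one. Python 3.11.15, pandas 2.3.3, NumPy 2.4.6 and, for the exact permutation tests, SciPy 1.17.1 did the rest.

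The genes named as most alike were the 5 with the highest correlation, and lists were described by counts, medians and up to 3 members that passed. The gene, the lists and the rules were chosen with earlier results of these data known. The authors' table of 1 value per interval, which has no gene names for its features, and the in situ hybridizations were not analysed here. Gene names follow the files, and family membership follows RefSeq (Release 6 plus ISO1 MT).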

Additional observations from a re-analysis of the deposited data

Results flagged for a closer look

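Of 9 groups of 4 membranes examined for Sr-CII, 5 of net signals and 4 of log2 levels, 1 held a membrane far from the others. At S8-9 the mean net signal of the pair on membrane D was 0.615, against 0.167, 0.141 and 0.156 on A, B and C, a gap to the next membrane of 0.946 of the whole range, which is past Dixon's 95% limit for 4 values. Chance alone takes about 1 in 20 groups past that limit. Over RP49 on the log2 scale the same membrane, at 3.68, did not pass that limit.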

How the results depend on the processing

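The sizes against S2-3 given here rest on a signal near background. Sr-CII was higher than at S2-3 in each of the 4 later intervals under every alternative that gave a value. The sizes that moved by more than the SD between membranes were, on the log2 scale, 7.26 at S5 and 8.16 at S10-12 with scaling to dap, 4.95 at S8-9 and 3.98 at S10-12 with the 75th percentile, 5.02 and 4.44 with quantiles, 4.96 and 3.82 with normexp, and 4.81 and 3.84 with the 75th percentile and every spot used. No value was had with the rule of 2 SDs or without membrane A of S2-3, because no S2-3 spot was then left. Leaving out other membranes gave ranges, in stage order, of 4.01 to 5.20, 3.90 to 5.38, 5.63 to 6.51 and 4.92 to 5.29. With no signal rule but the limit on duplicates kept, 2 membranes of S2-3 were measured and the adjusted p-values in limma were 0.00269, 0.00405, 0.000358 and 0.00225.

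S6-7 minus S5 changed sign, to 0.24 with the 75th percentile, 0.57 with the mean of RP49 and 0.11 on membrane D alone, and ranged between -0.86 and 0.69 with membranes left out, being 0.18 without C, 0.69 without S5 membrane D, 0.09 without S6-7 membrane A and 0.62 without S6-7 membrane C. S10-12 minus S8-9 turned to 0.99 with dap, and otherwise ranged between -1.42 and -0.34 with membranes left out. S8-9 minus S6-7 stayed positive, between 0.76 and 2.24 with membranes left out. None of these 3 differences passed under any alternative. The causes were not tested.

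With the letter as a replicate block, S8-9 minus S6-7 was 1.44 with an adjusted p of 0.385 in limma, and no call on Sr-CII changed. The calls in all features were then 5 of 222 for S6-7 minus S5, against 3 without the block, and 0 for both other steps. With neither the signal rule nor the limit on duplicates, the block moved the features higher than at S2-3 to 108, 85, 110 and 119, against 42, 23, 35 and 36, and Sr-CII was among them both ways. With 4 membranes looked at in each of the 7 comparisons, 18 of 28 correlated best with their own letter, the same membranes entering more than 1 comparison. It was 2 of 4 for S8-9 with S6-7 and 4 of 4 for S10-12 with S8-9. The authors' table was not run as an alternative, since its features carry no names.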
